A study of Mus musculus with 8 samples.

Results

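Transcripts of 9 genes that regulate the G1 phase of the cell cycle were followed in the inguinal mammary gland of virgin mice that had been gonadectomized (GDX), after injection of 17β-estradiol (E2), the main circulating estrogen. The genes were Myc, the D-type cyclins Ccnd1, Ccnd2 and Ccnd3, the E-type cyclin Ccne1, the atypical cyclin Ccng2, and the CDK inhibitors Cdkn1a, Cdkn1b and Cdkn1c. They were taken by symbol, with every Affymetrix probe set annotated to them alone. This gave 23 probe sets of 9 genes, among 45037 probe sets and 18193 genes on the arrays. On a filter on mean signal, 21 of the 23 passed, as did 27022 probe sets in all. The 2 that failed were 1416123_at of Ccnd2 and 1419497_at of Cdkn1b.

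The study used 8 arrays. Tissue was taken at 1, 3, 6, 12, 18 or 24 h after a subcutaneous injection of E2, with 1 array per time, and 2 arrays came from mice given vehicle, both titled 24 h. All mice, those given vehicle included, were gonadectomized and 12 to 13 weeks old. The titles give the times above, while every sample description reads 24 h. The dose carries both a microgram and a milligram unit and is not stated here. The labels do not say whether an array holds RNA of 1 mouse or of several. No vehicle array stands for 1 to 18 h, so an effect of E2 at those times cannot be told apart from one of injection or time of day.

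G1 is the phase in which a cell decides whether to copy its genome. Mitogens raise Myc, a transcription factor of growth genes, and the D cyclins, which activate CDK4 and CDK6. These kinases, and later CDK2 with cyclin E, phosphorylate the retinoblastoma protein and free the E2F factors that switch on S-phase genes. The proteins p21 (Cdkn1a), p27 (Cdkn1b) and p57 (Cdkn1c) bind and inhibit cyclin and CDK complexes. In human breast cancer cells, MYC and CCND1 are known as genes induced by estrogen, and CCNG2 as one repressed by it.

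The RNA came from whole tissue, in which fewer cells of a type and less RNA per cell cannot be told apart. Array medians lay between 173.9 and 180.49 intensity units. Between the vehicle arrays, the log2 differences had an SD of 0.14 over the 27022 probe sets tested. The estrogen target Pgr lay 2.43 above the vehicle mean (log2) at 3 h, and Foxa1 lay at -2.63. Skeletal muscle markers (15 of 15 tested) averaged log2 levels between 9.47 and 10.63 on the E2 arrays, against 9.46 and 9.03 on the vehicle arrays. Luminal epithelial markers (9 of 10 tested) averaged 9.23 to 9.90 on the E2 arrays, against 9.47 and 9.50 on the vehicle arrays. B lymphocyte markers (7 of 8 tested) averaged 9.48 to 10.03 on the E2 arrays, against 9.79 and 10.03 on the vehicle arrays. T lymphocyte markers (7 of 8 tested) averaged 8.99 to 9.41 on the E2 arrays, against 9.23 and 9.43 on the vehicle arrays. Adipocyte markers (7 of 9 tested) averaged 12.40 to 12.59 on the E2 arrays, against 12.52 and 12.61 on the vehicle arrays. No marker of these lists was at 0. What part these cell types have in the results below was not tested. Muscle markers averaged higher on every E2 array than on both vehicle arrays. A difference from vehicle with their mean as covariate therefore cannot tell muscle apart from E2. Every value with a marker mean as covariate is given as a description.

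Levels below are log2 intensity, and differences are log2 of E2 over vehicle unless said otherwise. For tests, the 3 E2 arrays at 1, 3 and 6 h made an early window and the 3 at 12, 18 and 24 h a late one, each set against the 2 vehicle arrays in limma with Benjamini-Hochberg adjustment over 27022 probe sets. Each gene is described by its leading probe set, the one with the highest mean, and then by its others.

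**Figure D1:**
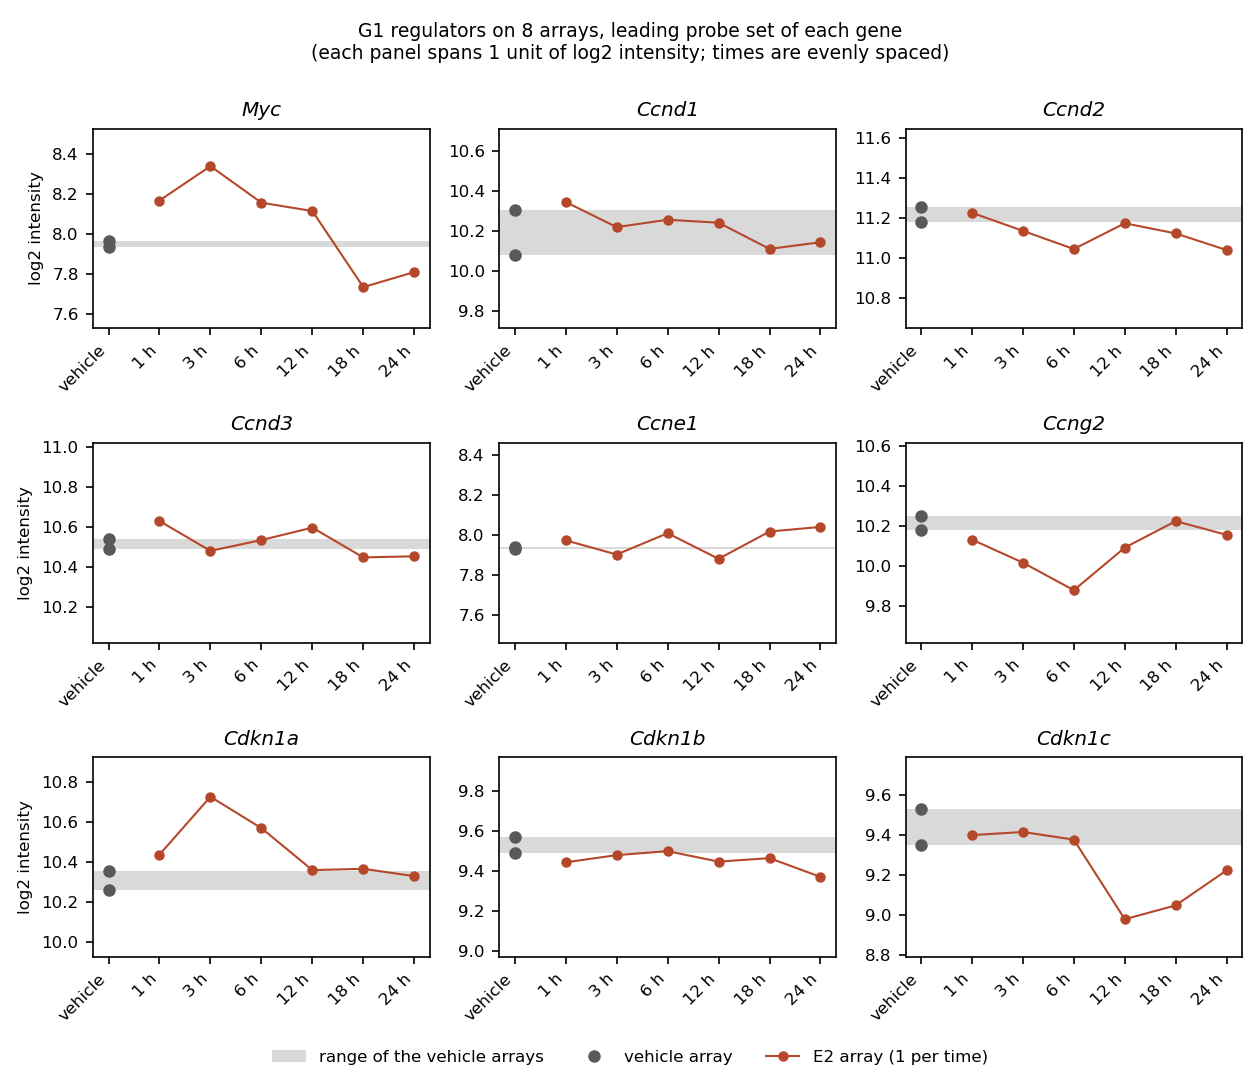
Log2 intensity (vertical axis) of the leading probe set of each of the 9 genes on the vehicle arrays (grey points and band) and on 1 E2 array per time (red), with evenly spaced times. Myc and Cdkn1a are highest at 3 h (8.34 and 10.73), Ccng2 is lowest at 6 h (9.88), Cdkn1c is lowest at 12 h (8.98), and the D cyclins stay near the band.

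Myc lay above vehicle at 1 to 12 h and below it at 18 and 24 h, and no window difference passed the test. Its single probe set, 1424942_a_at, measured 7.93 and 7.96 on the vehicle arrays, then 8.17, 8.34 and 8.16 at 1, 3 and 6 h, and 8.11, 7.73 and 7.81 at 12, 18 and 24 h. The arrays from 1 to 12 h were above both vehicle arrays, and those at 18 and 24 h were below both. The 3 h value was 0.39 above the vehicle mean, a 1.31-fold difference, while the vehicle arrays were 0.03 apart. Over the early window Myc averaged 8.22 ± 0.10 (SD), against 7.95 ± 0.02 on vehicle arrays, a difference of 0.27 ± 0.105 (SE) that did not pass the test (limma adjusted p = 0.876). With mean muscle marker level added as covariate it was 0.48 (adjusted p = 0.242). The late window averaged 7.88 ± 0.20, a difference of -0.06 ± 0.105 from vehicle (adjusted p = 0.87). The late window against the early window gave -0.34 ± 0.0939 (adjusted p = 0.163), and all late arrays were below all early arrays. With windows narrowed to 18 and 24 h against 3 and 6 h, that difference was -0.48 and passed (adjusted p = 0.0262). It also passed with mean muscle marker level added as covariate, at -0.38 (adjusted p = 0.0322). These fits called 453 and 1158 of 27022 probe sets, in this order, against 84 in the main fit. Without the 18 h array the difference of Myc was -0.26 (adjusted p = 0.497).

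B lymphocyte markers averaged -0.43 at 18 h and -0.38 at 24 h against the vehicle mean, and T lymphocyte markers -0.34 and -0.29, on the same arrays on which Myc was lowest. With mean lymphocyte marker level added as covariate the late minus early difference of Myc was -0.17 (adjusted p = 0.446).

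Of the D cyclins, Ccnd1 passed no test in any window comparison, and its leading probe set stayed mostly inside the vehicle range. Its leading probe set 1448698_at measured 10.08 and 10.31 on the vehicle arrays, then 10.34, 10.22 and 10.26 at 1, 3 and 6 h, and 10.24, 10.11 and 10.14 at 12, 18 and 24 h. Every E2 array but that at 1 h fell inside the vehicle range, which was itself 0.23 wide. The early window differed from vehicle by 0.08 ± 0.0751 (SE; adjusted p = 0.988) and the late window by -0.03 ± 0.0751 (adjusted p = 0.929). The probe set 1417420_at tracked the leading one (r = 0.88 over the 8 arrays), with E2 values from -0.23 to 0.12 against the vehicle mean. The dimmer 1417419_at tracked it less (r = 0.50) and lay between -0.17 and 0.0023. It was below both vehicle arrays at 12, 18 and 24 h, and 1417420_at was at 24 h.

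Ccnd2, the D cyclin needed for growth of ovarian granulosa cells in mice, averaged below vehicle in both windows on 5 of its 7 probe sets, and no difference passed the test. The leading 1434745_at measured 11.18 and 11.26 on the vehicle arrays, then 11.23, 11.14 and 11.05 at 1, 3 and 6 h, and 11.17, 11.12 and 11.04 at 12, 18 and 24 h. All E2 arrays except that at 1 h were below both vehicle arrays. The differences were -0.08 ± 0.0659 (SE) in the early window (adjusted p = 0.988) and -0.11 ± 0.0659 in the late window (adjusted p = 0.674). The transcripts read by 1416122_at and 1430127_a_at followed it closely (r = 0.94 and 0.93). The probe set 1448229_s_at, whose suffix marks probes shared between transcripts, was lower on all 6 E2 arrays. It measured 9.12 to 9.25 on the E2 arrays, against 9.44 and 9.39 on the vehicle arrays. Its early difference was -0.23 ± 0.0571 (adjusted p = 0.537), and its late difference was -0.21 ± 0.0571 (adjusted p = 0.628). The dimmer 1416124_at reached -0.36 at 6 h, from vehicle arrays 0.01 apart. In contrast 1455956_x_at lay between -0.10 and 0.11, so the size of the shift differed between probe sets of the gene.

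Ccnd3 also stayed near vehicle. Its leading probe set 1415907_at measured 10.49 and 10.54 on the vehicle arrays, then 10.63, 10.48 and 10.54 at 1, 3 and 6 h, and 10.60, 10.45 and 10.45 at 12, 18 and 24 h. The early window differed from vehicle by 0.03 ± 0.0651 (SE; adjusted p = 0.996) and the late window by -0.02 ± 0.0651 (adjusted p = 0.956). Of its other probe sets, 1444323_at ran the opposite way (r = -0.65) with 0.17 at 18 h, and 1438805_at (r = 0.59) lay at -0.31 at 6 h, where its vehicle arrays were 0.27 apart. That probe set was above both vehicle arrays at 1 h and below both at 3, 6 and 24 h.

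Ccne1, the cyclin that acts with CDK2 late in G1, varied little on its leading probe set. Its leading probe set 1441910_x_at measured 7.94 and 7.93 on the vehicle arrays, then 7.97, 7.90 and 8.01 at 1, 3 and 6 h, and 7.88, 8.02 and 8.04 at 12, 18 and 24 h. The early difference was 0.03 ± 0.0665 (SE; adjusted p = 0.996) and the late one 0.04 ± 0.0665 (adjusted p = 0.853). The other probe set, 1416492_at, has a mean of 7.06, close to the filter at 6.97. It measured 7.30 at 6 h, against 7.05 and 6.97 on the vehicle arrays, and between 6.93 and 7.13 on the other E2 arrays. Its 3 early arrays were all above both vehicle arrays, with a difference of 0.13 ± 0.0886 (adjusted p = 0.983).

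Cdkn1a, which encodes p21, an inhibitor known as a target of p53, was highest at 3 h like Myc. RefSeq lists 2 starts for the gene, 2790 bases apart on the plus strand of chromosome 17, and the arrays do not tell them apart. The 250 bases before each are shown because p53 is known to bind upstream of this gene. Capitals mark a form of the core of a p53 site (ACATGT) and the GC box read by Sp1 (GGGCGG, on either strand), with build GRCm38.p6.
Cdkn1a upstream start, chr17:29090729-29090978: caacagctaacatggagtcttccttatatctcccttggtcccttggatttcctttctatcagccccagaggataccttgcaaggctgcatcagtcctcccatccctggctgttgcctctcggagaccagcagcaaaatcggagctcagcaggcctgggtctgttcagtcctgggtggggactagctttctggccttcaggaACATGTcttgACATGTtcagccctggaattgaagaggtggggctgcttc
Cdkn1a downstream start, chr17:29093519-29093768: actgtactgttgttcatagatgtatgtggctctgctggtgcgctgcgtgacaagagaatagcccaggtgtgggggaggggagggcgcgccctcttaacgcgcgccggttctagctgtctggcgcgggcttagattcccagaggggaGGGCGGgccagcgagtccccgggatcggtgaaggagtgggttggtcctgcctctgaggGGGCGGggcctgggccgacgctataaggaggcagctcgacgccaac
The upstream window holds 2 p53 cores 4 bases apart, at -49 to -44 and -39 to -34 from the start. Such a pair was found in 4 of 32851 windows of this length (0.0122%), and a single core in 4.58%. The downstream window holds 2 GC boxes, a motif present in 32.7% of windows. Neither has GGTCA, the arm of an estrogen response element, which 35.2% of windows hold on either strand. These matches are descriptions of letters and not of binding.

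The leading Cdkn1a probe set, 1424638_at, measured 10.36 and 10.26 on the vehicle arrays, then 10.44, 10.73 and 10.57 at 1, 3 and 6 h, and 10.36, 10.37 and 10.33 at 12, 18 and 24 h. The 3 early arrays were above both vehicle arrays, and the late arrays lay between 10.33 and 10.37. At 3 h it was 0.42 above the vehicle mean, a 1.34-fold difference, where the vehicle arrays were 0.10 apart. The early window averaged 10.58 ± 0.145 (SD), against 10.31 ± 0.07 on vehicle arrays, a difference of 0.27 ± 0.0768 (SE; adjusted p = 0.678). The late window averaged 10.35 ± 0.02, a difference of 0.04 ± 0.0768 (adjusted p = 0.884). The late minus early difference was -0.23 ± 0.0687 (adjusted p = 0.182), which passed without the 1 h array at -0.30 (adjusted p = 0.0494). Without that array 403 of 27022 probe sets passed, against 84 with it. The other probe set, 1421679_a_at, also had its highest value at 3 h (8.33), against 8.22 and 8.09 on the vehicle arrays, but its lowest at 24 h (7.95). Skeletal muscle markers averaged 0.69, 0.56 and 1.39 above the vehicle mean at 1, 3 and 6 h, when Cdkn1a was at 0.13, 0.42 and 0.26. At 12, 18 and 24 h they averaged 0.23, 0.72 and 1.11, when Cdkn1a was at 0.05, 0.06 and 0.02. With mean muscle marker level added as covariate the early difference of Cdkn1a was 0.29 (adjusted p = 0.348). The part of muscle in the result for Cdkn1a was not tested.

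Cdkn1b, which encodes p27, stayed close to vehicle on its leading probe set. The values of 1434045_at were 9.49 and 9.57 on the vehicle arrays, then 9.45, 9.48 and 9.50 at 1, 3 and 6 h, and 9.45, 9.47 and 9.37 at 12, 18 and 24 h. All E2 arrays except that at 6 h were below both vehicle arrays, by small amounts. The early difference was -0.06 ± 0.0551 (SE; adjusted p = 0.991) and the late one -0.10 ± 0.0551 (adjusted p = 0.662). The other probe set, 1419497_at, was dim, at 5.02 to 5.27 on the E2 arrays, against 5.15 and 5.09 on the vehicle arrays.

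Cdkn1c, which encodes p57 and is expressed from the maternal allele through imprinting, was low late. Its only probe set, 1417649_at, measured 9.53 and 9.35 on the vehicle arrays, then 9.40, 9.41 and 9.38 at 1, 3 and 6 h, and 8.98, 9.05 and 9.22 at 12, 18 and 24 h. The early arrays lay inside the vehicle range and the late arrays below it. At 12 h it was -0.46 from the vehicle mean, at 0.73 of its intensity. The late window averaged 9.08 ± 0.13 (SD), against 9.44 ± 0.13 on vehicle arrays, a difference of -0.36 ± 0.0789 (SE; adjusted p = 0.576). It averaged 9.40 ± 0.02 over the early window, a difference of -0.04 ± 0.0789 from vehicle (adjusted p = 0.996). The late minus early difference, -0.31 ± 0.0706, had the smallest adjusted p among the 21 tested probe sets of these genes, at 0.0964. With mean muscle marker level added as covariate it was -0.28 and passed (adjusted p = 0.0398), and with that of lymphocytes it was -0.39 (adjusted p = 0.115). The fit with the muscle covariate called 1158 of 27022 probe sets, against 84 in the main fit. The imprinted growth genes, of which 10 of 11 were tested, averaged -0.16, -0.04 and 0.03 at 12, 18 and 24 h, with 7 below both vehicle arrays at 12 h, where 27.7% of all probe sets were. Among them Peg3, a zinc finger gene, lay at -0.55 at 12 h and -0.56 at 6 h, and Plagl1, a zinc finger factor that regulates imprinted genes, at -0.27 at 12 h. Dlk1, a secreted inhibitor of fat cell differentiation, lay at 0.43 at 3 h, with vehicle arrays at 9.66 and 9.24. The noncoding Meg3 lay at 0.28 at 6 h, and its other probe sets between -0.04 and 0.27. From the nearer vehicle array Dlk1 was at 0.22, Meg3 at 0.19 and Peg3 at 6 h at -0.38. None of the 10 was called in any window comparison. Macrophage markers (8 of 8 tested) averaged -0.14, -0.05 and -0.01 at 12, 18 and 24 h, with 7 of 8 below both vehicle arrays at 12 h, and their part in the result for Cdkn1c was not tested.

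Ccng2, an atypical cyclin known to accumulate in cells leaving the cycle and to be a target of FOXO factors, was low at 3 and 6 h. The 250 bases before its RefSeq start, on the plus strand of chromosome 5 in GRCm38.p6, are shown because forkhead motifs could be read there. Capitals mark AAACA, the core of a forkhead motif, and a GC box.
Ccng2, chr5:93267323-93267572: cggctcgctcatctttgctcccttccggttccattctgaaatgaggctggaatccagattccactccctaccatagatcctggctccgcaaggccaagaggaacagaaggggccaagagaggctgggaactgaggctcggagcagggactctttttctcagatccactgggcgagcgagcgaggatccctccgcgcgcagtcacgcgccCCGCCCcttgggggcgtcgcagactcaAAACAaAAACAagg
AAACA occurs at -14 to -10 and -8 to -4 from the start, and 46.4% of windows hold it on either strand. The longer forkhead motif GTAAACA (3.17% of windows) and GGTCA were not found in these letters. RefSeq windows were also matched for Ccnd3 (2 starts), Ccne1 and Cdkn1b, which makes 5 of the 9 genes. Among these, GTAAACA occurs in the upstream Ccnd3 window and GGTCA in both Ccnd3 windows. The core AAACA occurs there too, 2 times in the Cdkn1b window and 1 time in the upstream Ccnd3 window. The E-box CACGTG bound by Myc and Max (6.02% of all windows) and the E2F motif GCGGGAA (3.82%) occur in none of the 7 windows.

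The leading Ccng2 probe set, 1448364_at, measured 10.18 and 10.25 on the vehicle arrays, then 10.13, 10.01 and 9.88 at 1, 3 and 6 h, and 10.09, 10.22 and 10.15 at 12, 18 and 24 h. All E2 arrays but that at 18 h were below both vehicle arrays. At 6 h it was -0.34 from the vehicle mean, at 0.79 of its intensity. The early window averaged 10.01 ± 0.13 (SD), against 10.22 ± 0.05 on vehicle arrays, a difference of -0.21 ± 0.075 (SE; adjusted p = 0.855). With mean muscle marker level added as covariate it was -0.13 (adjusted p = 0.583). The late window averaged 10.16 ± 0.07, a difference of -0.06 ± 0.075 (adjusted p = 0.822). The late window lay 0.15 ± 0.0671 above the early window (adjusted p = 0.313). The other probe set, 1416488_at, followed the same course (r = 0.86), with -0.26 at 3 h and -0.27 at 6 h, although its vehicle arrays were 0.20 apart. Luminal epithelial markers averaged -0.26 at 3 h, -0.18 at 6 h and 0.41 at 12 h, when Ccng2 was at -0.20, -0.34 and -0.13. These markers did not move together. At 6 h their median was -0.09, with 5 of 9 below both vehicle arrays and 1 above both. Cdh1 lay at -0.85 and Cldn3 at -0.37 at 6 h, but Krt8 at -0.01 and Krt7 at 0.15. At 12 h Krt8 lay at 1.37 and Krt18 at 0.81, but Epcam at 0.00 and Cdh1 at -0.05. The part of these markers in the result was not tested.

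**Figure D2:**
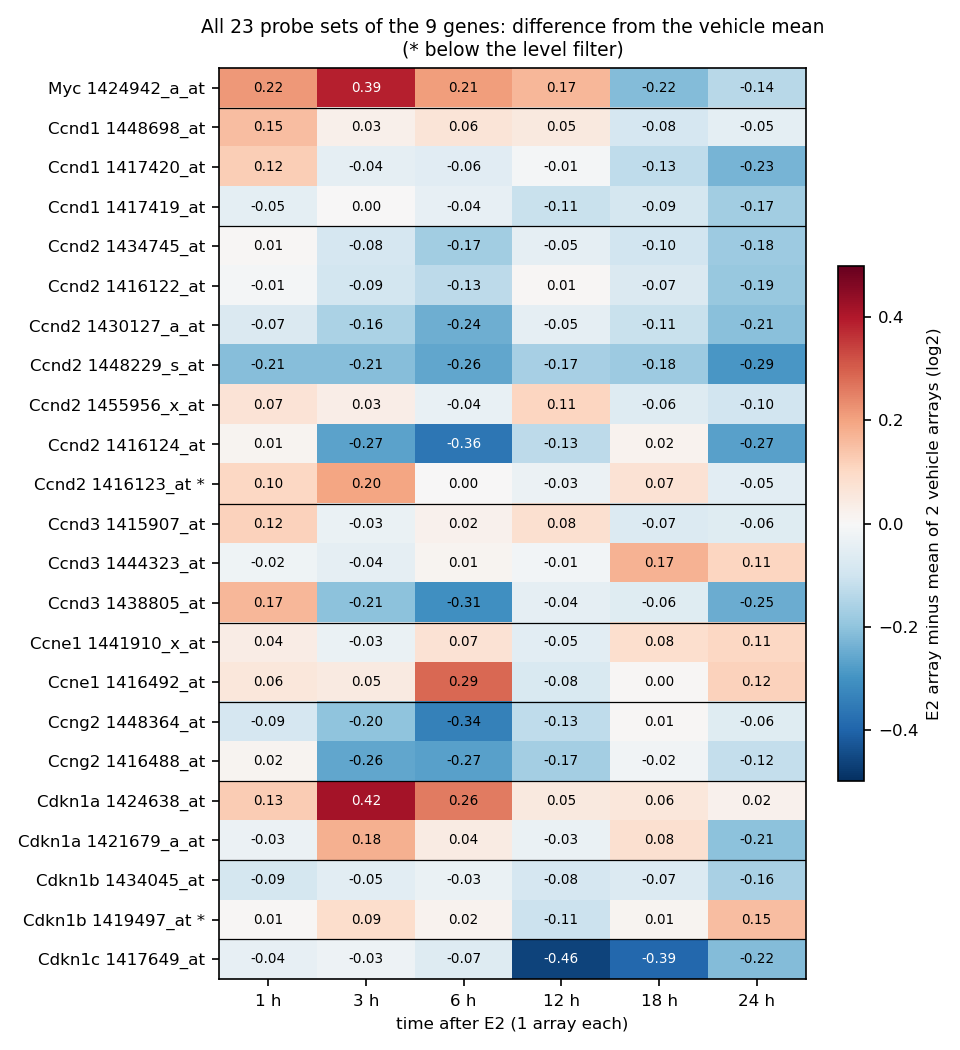
Difference of each E2 array from the mean of the vehicle arrays (log2, colour and printed value) for all 23 probe sets, grouped by gene, with time along the horizontal axis. The strongest reds are Myc (0.39) and Cdkn1a (0.42) at 3 h and the strongest blues Cdkn1c at 12 h (-0.46) and 18 h (-0.39). Probe sets marked with an asterisk failed the level filter.

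Counted over the 21 tested probe sets, none passed the test in any window comparison. The early window against vehicle called 0 of 21, against 0.0037% of all probe sets. The late window against vehicle called 0 of 21, against 0%, and the late against the early window 0 of 21, against 0.311%. At an unadjusted p below 0.05 there were 5 of 21 early (5.25% of all probe sets), namely Myc, Cdkn1a, Ccng2 and 2 probe sets of Ccnd2. There were 2 of 21 late (7.7%), Cdkn1c and 1 of Ccnd2, and 3 of 21 between the late and the early window (16.1%), Myc, Cdkn1a and Cdkn1c. These counts hold several probe sets of 1 gene, which share its transcripts.

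All early arrays were above both vehicle arrays for 3 of 21 probe sets (11.7% of all probe sets) and below both for 3 (7.36%). All late arrays were above both for 0 of 21 (11.3%) and below both for 5 (13.2%), which were 2 of Ccnd2 and 1 each of Ccnd1, Cdkn1b and Cdkn1c. All late arrays were above all early arrays for 0 of 21 (9.19%) and below them for 4 (12.1%), namely Myc, Cdkn1a, Cdkn1c and 1417419_at of Ccnd1. Of the 9 leading probe sets, 7 were lower than vehicle in the late window, with a median of -0.06, where 52.2% of all probe sets were lower and the median was -0.00. In the early window 5 were higher and 4 lower. The comparisons with vehicle share the same 2 arrays.

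At single times, which have 1 array and no replicate check, 0 of 21 probe sets lay 1.5-fold or more above, or below, both vehicle arrays. The share of all probe sets that did was 0.215%, 0.611% and 0.533% at 1, 3 and 6 h, and 0.167%, 0.141% and 0.163% at 12, 18 and 24 h. At a log2 difference of 0.32 from the nearer vehicle array there were 2 of 21 at 3 h (Myc and Cdkn1a, 2.11% of all probe sets), 1 at 6 h (1416124_at of Ccnd2, 2.03%) and 1 at 12 h (Cdkn1c, 0.925%). There were 0 at 1 h (0.903%), 18 h (0.884%) and 24 h (1.39%). A limma fit with 7 group means, which assumes that each lone array varies as the vehicle arrays do, called 0 of 21 at every time. Of all probe sets it called 0.0629%, 0.581% and 0.385% at 1, 3 and 6 h, and 0.0518%, 0.0111% and 0% at 12, 18 and 24 h. In that fit the adjusted p was 0.148 for Cdkn1a at 3 h, 0.255 for Myc at 3 h, 0.307 for Ccng2 at 6 h and 0.482 for Cdkn1c at 12 h.

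**Figure D3:**
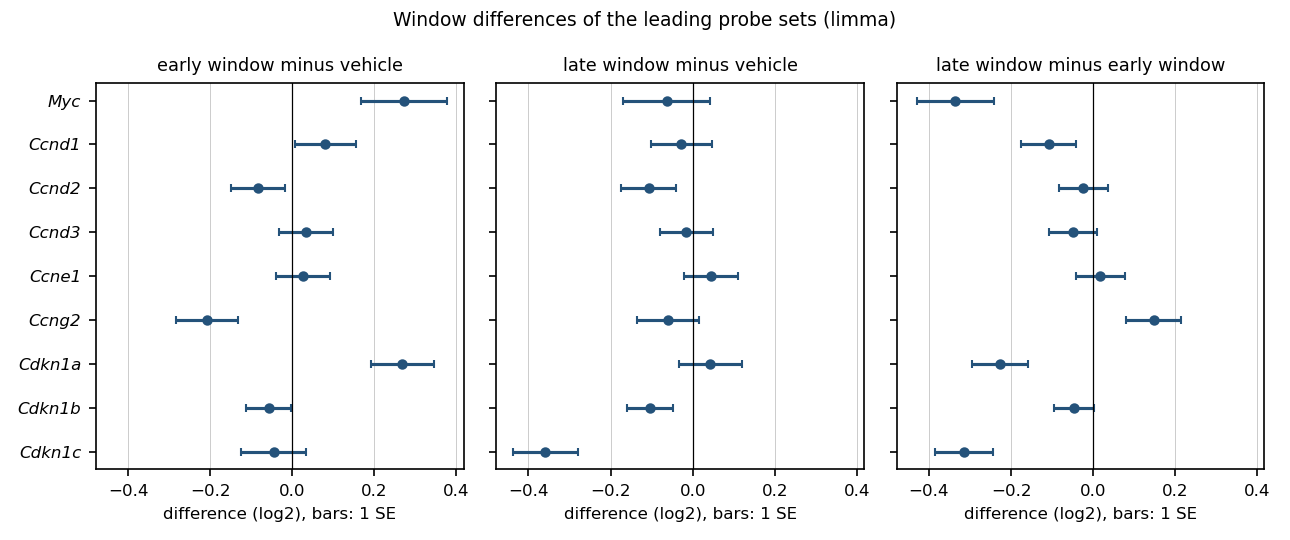
Window differences (log2, horizontal axis, points with bars of 1 SE from limma) of the leading probe set of each gene. Myc and Cdkn1a are both at 0.27 and Ccng2 at -0.21 in the early window against vehicle, and Cdkn1c is at -0.36 in the late window against vehicle.

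The other genes of the pathway were taken from lists by function, each gene at its leading probe set. None of their tested genes was called in the 3 window comparisons. Shares and medians of all probe sets, here and above, are over every tested probe set and not over leading ones alone. Among the partners of Myc (12 of 12 tested), Max, its obligate dimer partner, lay at -0.29, 0.22 and 0.05 at 1, 3 and 6 h, and at -0.57, -0.47 and -0.51 at 12, 18 and 24 h, on a single probe set. Its late minus early difference was -0.51 (adjusted p = 0.081). Mycl, a paralog of Myc, lay at 0.42 at 1 h, and its other tested probe set at 0.33. Mxd3, a repressor that competes for Max, lay at -0.24 at 12 h. Mga lay at -0.21 at 18 h, and its other tested probe set at -0.12.

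Of the Myc target genes (21 of 22 tested), 18 were higher than vehicle in the early window, with a median of 0.07, where 46.4% of all probe sets were lower and the median was 0.01. Against the early window 16 of the 21 were lower in the late window, with a median of -0.15, where 54.8% of all probe sets were lower and the median was -0.01. At an unadjusted p below 0.05 there were 10 of 21, against 16.1% of all probe sets, and 0 after adjustment. The list averaged -0.08 at 18 h and -0.13 at 24 h against vehicle, on the arrays on which B and T lymphocyte markers were low, and their part in the result was not tested. The nucleolar genes Gnl3 and Rrs1 lay at 0.31 at 3 h and 0.30 at 1 h, with the other Rrs1 probe set at 0.16. Nop58 lay at -0.56 and Nolc1 at -0.33 at 24 h, and the other Nolc1 probe sets at -0.34 and -0.07.

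Among the G1 kinases and their partners (10 of 11 tested), no gene was farther from the vehicle mean than 0.19 at any time. That value was Ccna2, the S-phase cyclin, at 3 h, and Cdk4, the kinase of the D cyclins, lay at 0.15 at 12 h. Cdk6 was at 0.15 at 6 h, and Cks1b, a cofactor of p27 degradation, at -0.16 at 24 h. The INK4 inhibitors Cdkn2b, Cdkn2c and Cdkn2d (3 of 4 tested) were at most 0.22 from vehicle, the value of Cdkn2d being -0.22 at 18 h. In the Rb and E2F group (13 of 13 tested) Tfdp1, the dimer partner of E2F factors, lay at 0.23 at 6 h and the pocket protein gene Rbl2 at -0.19 at 24 h. E2f7 lay at -0.19 at 3 h, and E2f6, a repressor, at 0.18 at 12 h. Other tested probe sets had the opposite sign at the same time for E2f6 (-0.10) and for Cdk6 (-0.03). They were nearer vehicle for Ccna2 (0.04) and Rbl2 (-0.06).

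Genes of S phase and mitosis (19 of 23 tested) had a median of 0.07 in the early window and -0.05 in the late window against vehicle. Against the early window 18 of 19 were lower in the late window, with a median of -0.11, and 6 of 19 had an unadjusted p below 0.05. The shares of all probe sets in that comparison were 54.8% lower and 16.1% at that p, with a median of -0.01. Mki67, a marker of cycling cells, lay at -0.29 at 24 h, on arrays where lymphocyte markers were low too, as given above. Rrm2, of ribonucleotide reductase, and the helicase subunit Mcm5 were both at -0.26 at 24 h. Aurka, a mitotic kinase, lay at 0.21 at 6 h.

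Other genes known as p53 targets (17 of 19 tested) gave a mixed picture. At 3 h Perp, a membrane protein of desmosomes, lay at 0.82 and Gadd45a, a growth arrest gene, at 0.74. Both were called at that time by the fit with 7 group means (adjusted p = 0.0202 and 0.0402). Plk2, a polo-like kinase, lay at -0.51 at 1 h, with its other probe set at -0.25. Pmaip1, a promoter of apoptosis, lay at -0.53 at 18 h. In all, 8 of 17 were above both vehicle arrays at 3 h, against 32.7% of all probe sets, and 4 were below both, against 29%. The FOXO factors and target genes (16 of 16 tested) averaged -0.21 on the first vehicle array against the second. Besides Gadd45a, Pdk4, an inhibitor of glucose oxidation, lay at 0.96 at 3 h, Cited2 at -0.43 at 3 h and Txnip at -0.40 at 6 h. From the nearer vehicle array Pdk4 was at 0.72, Cited2 at -0.20 and Txnip at -0.27. At 6 h, 8 of the 16 were below both vehicle arrays, against 31.8% of all probe sets, and 3 were above both, against 36.7%.

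The estrogen response genes (7 of 8 tested) were listed with earlier results of these data known. Their values and calls are therefore no independent support. Of these genes, 4 were farthest from vehicle. Krt4, an epithelial keratin, lay at 3.40 at 3 h and the progesterone receptor gene Pgr at 2.43. Foxa1, a pioneer factor of the estrogen receptor, lay at -2.63 at 3 h and Cited1 at -2.02 at 6 h. These 4 were called at those times by the fit with 7 group means, with adjusted p between 0.000104 and 0.00163. The other 3, named after their values were seen, include Esr1, the estrogen receptor gene, at -0.99 at 6 h (adjusted p = 0.00793), and Gata3, a luminal transcription factor, at -0.86 at 3 h (adjusted p = 0.0163). The estrogen target Greb1 was at most 0.16 from vehicle, at 3 h (adjusted p = 1).

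**Figure D4:**
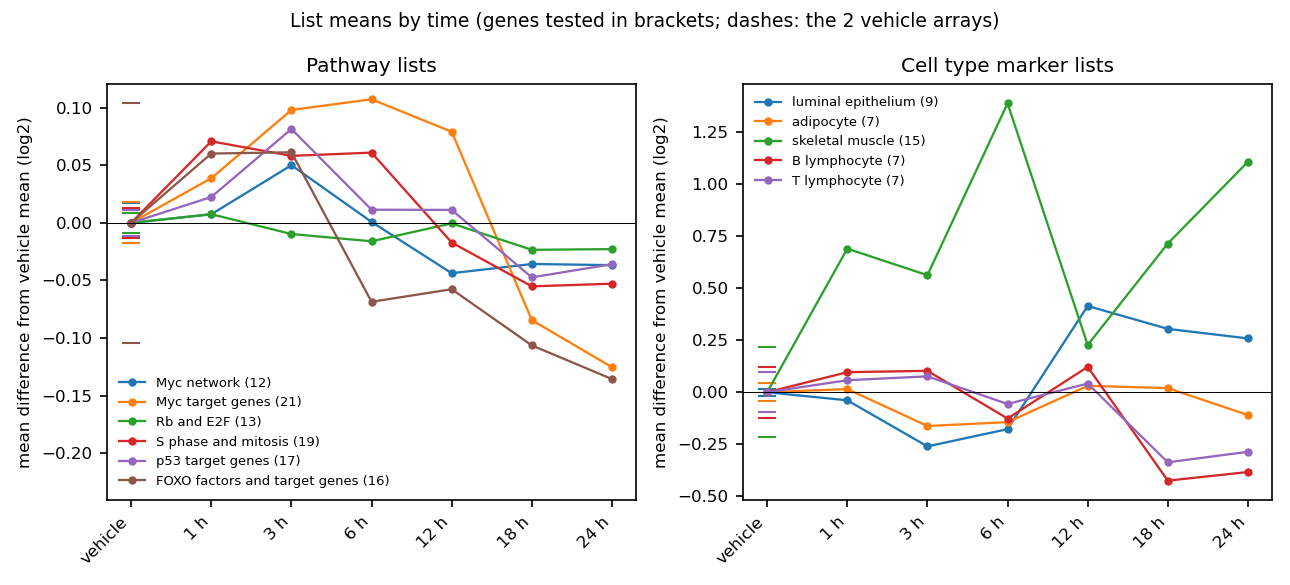
Mean difference from the vehicle mean (log2, vertical axis) of pathway lists (left) and cell type marker lists (right) at each time, with the vehicle arrays as dashes. Myc target genes average 0.11 at 6 h and -0.13 at 24 h, skeletal muscle markers 1.39 at 6 h, and B lymphocyte markers -0.43 at 18 h. The panels have different vertical scales.

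The genes whose course over the 8 arrays was most like each member's were found among 570 genes with an SD of at least 0.2, and are given as a description of shared course on shared arrays. For Myc they were Ier2 and Egr1, immediate early transcription regulators (Pearson r = 0.97 for each), and the glucose transporter gene Slc2a3 (r = 0.97). For Cdkn1a they were Krt79, Fbxo31 and Atp8b1 (r = 0.98 each). For Ccng2 they were Cdh1, the epithelial cadherin (r = 0.94), Cited1, a coactivator (r = 0.91), and Tmprss2, a membrane protease (r = 0.89). For Cdkn1c they were Cybb (r = 0.98), Opcml (r = 0.95) and Cwc25 (r = 0.92). For Ccnd1 they were Fam126b (r = 0.94), Akna (r = 0.86) and Vcam1 (r = 0.86), and for Ccnd2 Cobll1, Klhl2 and Npr3 (r = 0.95, 0.94 and 0.92). For Ccnd3 they were Satb1, Jchain and Ighm, genes of lymphocytes (r = 0.82, 0.82 and 0.81). For Cdkn1b they were Malt1, Ccr6 and Vnn1 (r = 0.85, 0.83 and 0.80), and for Ccne1 Ankrd23, Smr2 and AW551984 (r = 0.85, 0.79 and 0.79).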

How the data were processed

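Tissue RNA of 7 groups was measured on 8 Affymetrix arrays of 1 colour, per the labels' protocols. GCOS 1.0 and RMA are named, with no role or order, in the submitters' processing notes. The deposited values are intensity on a linear scale with near-equal array medians, as the authors gave them. log2 was taken of them with no further normalization. Control probe sets, 64 in number, were dropped. Of the rest, those with 1 symbol numbered 34945, with several 932 and with none 9160, and 34741 of the 34945 matched the RefSeq annotation of GRCm38.p6. Tests took probe sets whose mean reached the 40th percentile, a log2 of 6.97.

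Windows were compared in limma 3.58.1 (R 4.3.3), with a trend of variance on mean and 5 residual degrees of freedom, two-sided, called at an adjusted p below 0.05. The fit was tested on simulated data with changes larger than any of the member genes. That test says nothing about differences of the size seen in the members. Different times in 1 window count as spread, and p-values rest on array-to-array spread alone, possibly technical. Up to 4 genes per pathway list were named, those farthest from the vehicle mean at any time, and the 3 genes of highest Pearson r per member. The members and lists were chosen with earlier results of these data known. Sequences are RefSeq's. The number of arrays limits the precision.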

Additional observations from a re-analysis of the deposited data

How the results depend on the processing

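Alternatives were a filter at the 60th percentile or none, median centring or quantile normalization, no variance trend, 1 probe set per gene, muscle or lymphocyte marker means as covariates, narrow windows (3 and 6 h, 18 and 24 h), and each array left out. Of 456 recomputed differences of the 9 leading probe sets, 4 passed the test, all between the late and the early window, and 34 changed sign. The early window against vehicle called 1 probe set of 27022. That count was 2 without a filter, 0 with the filter at the 60th percentile, 12 and 29 with the muscle and lymphocyte covariates, 156 with narrow windows, and 0 to 130 with an array left out, the highest without the 1 h array and 0 without either vehicle array. It was 5 without the 3 h, 23 without the 6 h and 2 without the 18 h array. The late window against vehicle called 0 under every alternative, with 2080 probe sets at an unadjusted p below 0.05 in limma. The late against the early window called 84. That count was 23 with quantile normalization, 10 with no trend, 1158 and 23 with the muscle and lymphocyte covariates, 453 with narrow windows, and 1 to 403 with an array left out (1 without 18 h, 3 without 12 h, 4 without 24 h, 9 without 3 h, 42 without either vehicle array, 126 without 6 h, 403 without 1 h). Member probe sets called there numbered 2 with the muscle covariate, 1 with narrow windows and 0 to 1 with an array left out. At single times 4 pairs of member probe set and time were counted at a log2 difference of 0.32, against 0 at 1.5-fold.

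Differences that changed sign were these. Early against vehicle, Ccnd2 was 0.0548 and Ccne1 -0.0895 with the muscle covariate, and Ccnd3 was -0.0073 with narrow windows. Late against vehicle, the muscle covariate gave 0.0991 for Myc, 0.0507 for Ccnd1, 0.0002 for Ccnd2, 0.0439 for Ccnd3 and -0.0456 for Ccne1. The lymphocyte covariate gave 0.0798 for Myc, 0.0473 for Ccnd1, 0.0444 for Ccnd3 and -0.0199 for Ccne1, and quantile normalization 0.0034 for Ccnd1 and 0.0262 for Ccnd3. Late against early, quantile normalization gave 0.0310 for Ccnd2 and 0.0124 for Ccnd3, and the lymphocyte covariate 0.0426 for Ccnd2, 0.0180 for Ccnd3 and -0.0539 for Ccne1. With an array left out, early against vehicle ranged from -0.0332 to 0.1955 for Ccnd1, from -0.0073 to 0.0675 for Ccnd3 and from -0.1352 to 0.0458 for Cdkn1c. Late against vehicle ranged from -0.1780 to 0.0124 for Myc, from -0.1417 to 0.0870 for Ccnd1, from -0.0643 to 0.0102 for Ccnd3 and from -0.0053 to 0.0900 for Cdkn1a. Late against early ranged from -0.0690 to 0.0217 for Ccnd2 and from -0.0125 to 0.0675 for Ccne1. The cause of these changes was not tested. Ccne1's leading probe set has no value with the filter at the 60th percentile.

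No paired analysis was possible because there was 1 E2 array per time and the 2 vehicle arrays were both titled 24 h.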
